A study of Homo sapiens with 6 samples.

Results

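The HOX genes of OCI-AML3 cells, with their partner genes MEIS1 and PBX3, were examined with and without Vorinostat. The OCI-AML3 line was derived from acute myeloid leukaemia and carries mutated NPM1, which both groups therefore share. Of the 2 groups, 3 samples were given 1 μM Vorinostat, an inhibitor of histone deacetylases, for 24 h, and 3 were given DMSO, its solvent, and total RNA of each was hybridised to 1 Affymetrix array. All values come from a single cell line, and the samples of each group bear the replicate numbers 1, 2 and 3. The members are all probe sets that name a single gene of the HOXA, HOXB, HOXC or HOXD cluster, antisense genes left out, with those of MEIS1 and PBX3. This gave 47 probe sets for 30 genes, of 54613 probe sets tested and 19775 genes named by a probe set of their own.

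HOX genes encode homeodomain transcription factors and lie in 4 clusters, in which the number of a gene gives its position from the 3′ to the 5′ end. In blood formation, genes of the HOXA and HOXB clusters are used in stem and progenitor cells and are shut down as cells mature. Their proteins bind DNA with partners of the TALE class of homeodomain proteins, which include MEIS1 and PBX3. Leukaemia with mutated NPM1 is known for HOXA and HOXB expression together with MEIS1.

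The cover of the clusters was unequal. On chromosome 17 all 10 HOXB genes were measured, by 19 probe sets, and on chromosome 12 all 9 HOXC genes, by 9 probe sets. On chromosome 2, 8 of 9 HOXD genes were measured, by 15 probe sets. Of the 11 HOXA genes on chromosome 7 only HOXA2 had a probe set that names it alone here. The other 10 HOXA genes, HOXA9 among them, and HOXD3 were not analysed as members here, so that the HOXA genes best known in this leukaemia have no value below. Of the 30 genes, 14 were read by several probe sets, and those whose names end in _s_at or _x_at can also match other transcripts.

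The 6 arrays differed in how many probe sets gave signal, and those of replicate number 1 stood apart in both groups. A log2 value of 3 was used as the level above which a probe set was counted as on. The number of probe sets above it was 8158 on the Vorinostat array and 8645 on the DMSO array of replicate number 1, against 2769 and 3274 on the other Vorinostat arrays and 3731 and 2761 on the other DMSO arrays. The difference between the 3′ and 5′ probe sets of GAPDH, a measure of RNA or target integrity, was 1.51, 1.69 and 2.26 log2 in Vorinostat replicates 1, 2 and 3, and 0.99, 1.02 and 4.02 in DMSO replicates 1, 2 and 3. That of ACTB was 3.41, 2.70 and 3.83 log2 in Vorinostat replicates 1, 2 and 3, and 4.51, 2.77 and 4.04 in DMSO replicates 1, 2 and 3. Of the myeloid markers, CEBPA, LYZ and ELANE were above 3 on all 3 DMSO arrays, MPO, SPI1 and CD14 were above 3 on none, and CD33 was not analysed here. AZU1 had 6.31, 1.94 and 2.06 log2 in DMSO replicates 1, 2 and 3, so that it was above 3 in replicate 1 alone. No marker of T and NK, B, erythroid, epithelial or fibroblast cells was above 3 on all arrays of a group. Single arrays were above 3 for CD79A (4.09, Vorinostat replicate 2), CDH1 (3.92, DMSO replicate 3) and COL1A2 (4.98, Vorinostat replicate 1). HOXA9 and MEIS1, the markers of the HOX programme, could be checked by MEIS1 alone, which was above 3 on 1 of 3 Vorinostat arrays and 1 of 3 DMSO arrays.

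Among the genes with a value above 3 on any array, RefSeq promoter windows were at hand for HOXD1, MEIS1 and PBX3. The window of PBX3 holds bases inside the gene. The 250 bases before the gene start of MEIS1, at chr2:66434875-66435124, and of HOXD1, at chr2:176188418-176188667, are shown for the 2 genes with such a stretch (plus strand, GRCh38.p14). The capitals mark each CG dinucleotide, the letters that make up CpG islands.
MEIS1: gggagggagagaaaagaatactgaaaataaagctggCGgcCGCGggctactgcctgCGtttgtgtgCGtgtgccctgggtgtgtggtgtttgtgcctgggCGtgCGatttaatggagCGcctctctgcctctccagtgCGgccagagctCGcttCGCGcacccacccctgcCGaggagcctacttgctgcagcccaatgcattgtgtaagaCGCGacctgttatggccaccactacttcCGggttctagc
HOXD1: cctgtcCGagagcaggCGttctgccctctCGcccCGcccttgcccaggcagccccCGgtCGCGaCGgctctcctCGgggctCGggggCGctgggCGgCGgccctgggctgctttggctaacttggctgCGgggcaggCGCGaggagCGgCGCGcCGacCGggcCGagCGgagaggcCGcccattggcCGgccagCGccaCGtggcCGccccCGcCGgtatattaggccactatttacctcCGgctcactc
The MEIS1 window held 16 CG dinucleotides and that of HOXD1 31, against a median of 11 over 35116 windows of the same length. Windows were at hand for 13 of the 30 genes, of which those of HOXC4 and HOXC5 are the same stretch. The letters TGACAG, the core recognised by MEIS proteins, occurred on either strand in 13.0% of all windows and in those of HOXA2 and PBX3. The letters TGATNNAT, the form bound by HOX and PBX proteins together, occurred on either strand in 6.47% of all windows and in those of HOXA2, HOXB1 and HOXD11. The TATA box letters TATAAA, searched likewise, occurred in 10.7% of all windows and in that of HOXD13. Like the PBX3 window, that of HOXD13 holds bases inside the gene. Neither window printed holds any of the 3 motifs. In HOXA2, the only window with more than 1 kind, they do not overlap.

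In DMSO no measured cluster position was above the level of 3 on all 3 arrays. None of the 47 probe sets exceeded 3 on all 3 DMSO arrays, against 4.04% of all probe sets, and none did on all 3 Vorinostat arrays, against 3.66%. Counted by gene, 0 of 30 member genes had such a probe set in DMSO, against 7.91% of all genes. The rule leans on DMSO replicates 2 and 3, with 3731 and 2761 probe sets above 3, against 8645 in replicate 1. Of 10 measured housekeeping genes 8 met the rule. TBP had 2.97, 2.31 and 2.01 log2 in DMSO replicates 1, 2 and 3, and GUSB 7.59, 3.04 and 2.34. On DMSO replicate 1 HOXB3 228904_at was at 5.18, PBX3 at 4.36 and MEIS1 204069_at at 3.35. A member that fails the rule is not thereby shown to be off. At 1 or more of the 6 arrays 5 members exceeded 3, namely HOXB3, HOXB8, HOXD1, MEIS1 and PBX3, each with 1 probe set, where 19.7% of all probe sets did. Of the 282 values of the members 8 were above 3 and 65 above 2. The arrays' low end holds values that many probe sets share exactly, up to a log2 value of 2.37, and 13 of the 282 member values were such values, each shared by at least 100 other probe sets, so that low members are ordered only loosely. In bulk samples of this kind fewer cells with a transcript and less of it per cell cannot be told apart.

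**Figure D1:**
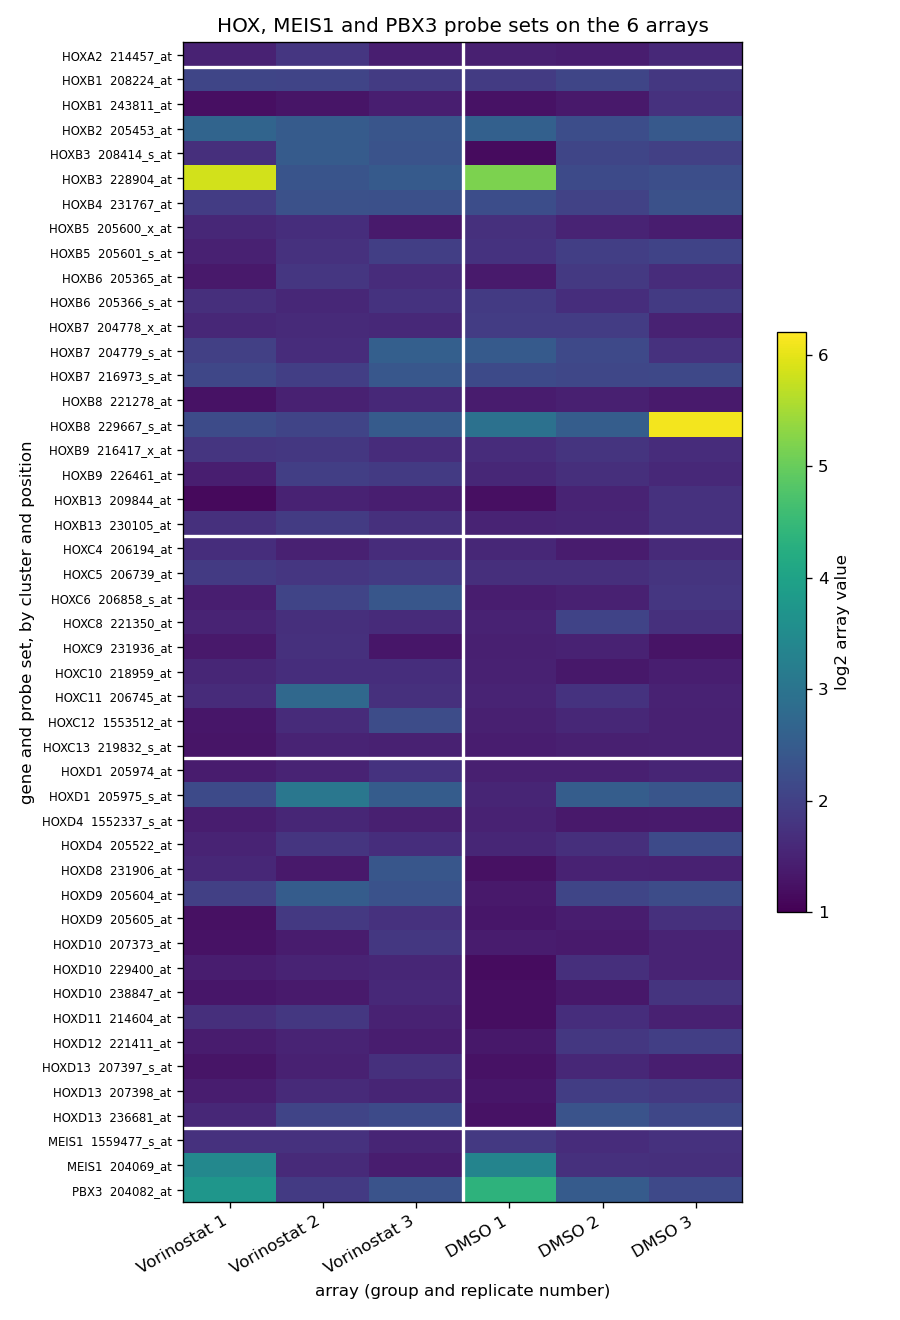
Log2 array value (colour) of the 47 probe sets (rows, by cluster and position from the low to the high gene number) on the 3 Vorinostat and the 3 DMSO arrays (columns). Most cells lie under a value of 3, and the 8 values above it fall in HOXB3, HOXB8, HOXD1, MEIS1 and PBX3.

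At the lower level of 2, taken after the values were seen, 6 members were on in all 3 DMSO arrays, against 11.7% of all probe sets. They were single probe sets of HOXB2, HOXB3, HOXB4, HOXB7, HOXB8 and PBX3. Thus 5 of the 6 lay in the HOXB cluster, which supplies 19 of the 47 members, while HOXA supplies 1. The count of 6 is near the share of all probe sets. The level of 2 also lies under 2.37, the highest value that many probe sets share exactly. Over all arrays, 38 of 114 HOXB values were above 2, against 5 of 54 HOXC values and 15 of 90 HOXD values. The share of all array values above 2 was not counted, and several of these probe sets read the same gene. The counts are therefore not read as a difference between clusters. HOXB5 and HOXB6, between HOXB4 and HOXB7 in the cluster, had no probe set above 2 on all 3 DMSO arrays. HOXB2, HOXB3 and HOXB8 had a probe set above 2 on all 6 arrays, as 9.19% of all probe sets had.

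The HOXB cluster held the members with the widest range. HOXB3, an anterior gene of the cluster expressed in blood progenitors, is read by 2 probe sets. Probe set 228904_at had log2 values of 5.84, 2.35 and 2.48 in Vorinostat replicates 1, 2 and 3, and 5.18, 2.16 and 2.26 in DMSO replicates 1, 2 and 3. The arrays of replicate number 1 stood alone at the top in both groups, and the groups overlapped. The difference was 0.36 log2 (SE 1.30, unadjusted p = 0.793, adjusted p = 1.0, limma), with 0.67, 0.19 and 0.22 log2 within replicate numbers 1, 2 and 3. By limma with the replicate number as a block the SE was 0.14, the unadjusted p 0.062 and the adjusted p 0.887.

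The other HOXB3 probe set, 208414_s_at, went the opposite way between arrays. It had log2 values of 1.70, 2.50 and 2.34 in Vorinostat replicates 1, 2 and 3, and 1.15, 2.09 and 1.99 in DMSO replicates 1, 2 and 3. Here the arrays of replicate number 1 were the lowest of each group. Vorinostat was above DMSO within each number, with a mean difference of 0.43 log2 (SE 0.34, unadjusted p = 0.257, limma). With the replicate number as a block the SE was 0.10 and the unadjusted p was 0.012, and the adjusted p over all probe sets was 0.887.

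HOXB8, a posterior HOXB gene that holds myeloid progenitors of the mouse in an immature state when overexpressed, gave the only member whose groups did not overlap with Vorinostat below DMSO. The values of probe set 229667_s_at were 2.18, 2.07 and 2.49 log2 in Vorinostat replicates 1, 2 and 3, and 2.93, 2.54 and 6.10 in DMSO replicates 1, 2 and 3. DMSO replicate 3 alone was above 3, and Vorinostat replicate 3 and DMSO replicate 2 were 2.49 and 2.54. The difference was −1.61 log2 (SE 0.98, unadjusted p = 0.156, limma), and −0.49 without DMSO replicate 3. That array had the largest GAPDH 3′ to 5′ difference (4.02 log2), while by ACTB (4.04 log2) it lay below DMSO replicate 1 (4.51) and near Vorinostat replicate 3 (3.83). On the same array CDH1, an epithelial marker, was at 3.92 log2, against 1.39 to 1.59 on the other 5 arrays, while EPCAM and KRT19, the other 2 epithelial markers, were under 3 on all 6. The part of either in the result was not tested. The second HOXB8 probe set, 221278_at, was between 1.25 and 1.59 on the Vorinostat arrays and between 1.38 and 1.46 on the DMSO arrays, and its difference was 0.02 log2 (SE 0.12).

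The other HOXB probe sets, 17 with the second probe sets of HOXB3 and HOXB8 counted, exceeded 3 on no array. HOXB2, at the anterior end, had log2 values of 2.67, 2.50 and 2.37 in Vorinostat replicates 1, 2 and 3, and 2.60, 2.23 and 2.45 in DMSO replicates 1, 2 and 3. HOXB4, known for its use in expanding blood stem cells, had 1.92, 2.30 and 2.26 log2 in Vorinostat replicates 1, 2 and 3, and 2.23, 2.03 and 2.28 in DMSO replicates 1, 2 and 3. In both genes the groups overlapped, and the differences were 0.09 (SE 0.14) and −0.02 log2 (SE 0.15). The 3 probe sets of HOXB7 differed by −0.17, −0.04 and 0.02 log2, and the 2 of HOXB1 by 0.08 and −0.14. Those of HOXB5, HOXB6, HOXB9 and HOXB13 had differences between −0.19 and 0.18 log2. Over the 19 HOXB probe sets the median difference was −0.0036 log2, and 9 of them had a higher mean with Vorinostat (46.0% of all probe sets).

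**Figure D2:**
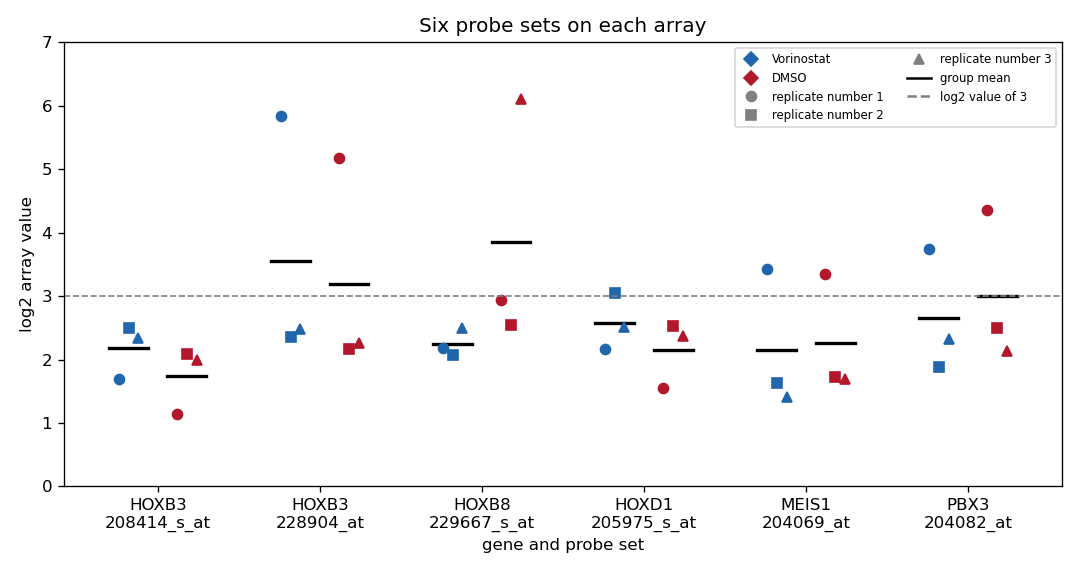
Log2 array value (vertical axis) of 6 probe sets in the 3 Vorinostat arrays (blue, left of each pair) and the 3 DMSO arrays (red, right), with marker shapes for the replicate numbers, black bars for group means and the dashed line at the level of 3. The replicate number 1 arrays of both groups stand above the others in HOXB3 228904_at, MEIS1 and PBX3, and DMSO replicate 3 stands alone in HOXB8.

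In the HOXD cluster, HOXD1, the most anterior gene, was the only one with a value above 3. Its probe set 205975_s_at had log2 values of 2.17, 3.06 and 2.51 in Vorinostat replicates 1, 2 and 3, and 1.55, 2.53 and 2.37 in DMSO replicates 1, 2 and 3. Vorinostat was above DMSO within each number, and the groups overlapped, since Vorinostat replicate 1 lay below 2 DMSO arrays. The difference was 0.43 log2 (SE 0.35, unadjusted p = 0.273, limma; with the replicate block SE 0.14, unadjusted p = 0.034 and adjusted p = 0.887). The other HOXD1 probe set, 205974_at, differed by 0.07 log2 (SE 0.12).

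HOXD9, a gene from the posterior part of the cluster, gave a like pattern in 205604_at. It had log2 values of 1.98, 2.52 and 2.32 in Vorinostat replicates 1, 2 and 3, and 1.37, 2.08 and 2.21 in DMSO replicates 1, 2 and 3. The difference was 0.39 log2 (SE 0.27, unadjusted p = 0.214, limma), and with the replicate block the unadjusted p was 0.048 and the adjusted p 0.887. Its second probe set, 205605_at, differed by 0.14 log2 (SE 0.21). The 14 HOXD probe sets that never exceeded 3 lay between 1.18 and 2.52, with differences from −0.27 (HOXD12) to 0.39 log2 (HOXD9). HOXD10 to HOXD13, the genes that pattern limbs and the posterior body, had a highest value of 2.33.

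No HOXC probe set exceeded 3 on any array, the values lying between 1.27 and 2.76. Of the 9, 7 had a higher mean with Vorinostat (46.0% of all probe sets). Within each of the 3 numbers 5 were higher (12.4% of all probe sets), namely HOXC4, HOXC5, HOXC6, HOXC10 and HOXC11. Members this low are ordered only loosely, and the counts are not read as a response of the cluster. HOXC10, a posterior gene, gave 1.55, 1.69 and 1.68 log2 in Vorinostat replicates 1, 2 and 3, and 1.48, 1.33 and 1.44 in DMSO replicates 1, 2 and 3. The groups did not overlap, and the difference of 0.22 log2 (SE 0.10, limma) had the lowest unadjusted p of all members, 0.066. HOXC5 was the other member whose groups did not overlap with Vorinostat above DMSO, with 1.89, 1.83 and 1.88 log2 in Vorinostat replicates 1, 2 and 3, and 1.71, 1.71 and 1.77 in DMSO replicates 1, 2 and 3. Its difference was 0.13 log2 (SE 0.08). HOXC11 had the largest positive difference of the members, 0.45 log2 (SE 0.33), with 2.76 in Vorinostat replicate 2 and 1.63 and 1.73 in Vorinostat replicates 1 and 3, against 1.53, 1.75 and 1.50 in DMSO replicates 1, 2 and 3. HOXA2, an anterior gene of the hindbrain, lay between 1.44 and 1.82 on the Vorinostat arrays and between 1.42 and 1.60 on the DMSO arrays.

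MEIS1, whose protein stabilises HOX binding and speeds the leukaemia of HOXA9 in the mouse, was read by 2 probe sets. Probe set 204069_at had log2 values of 3.42, 1.62 and 1.41 in Vorinostat replicates 1, 2 and 3, and 3.35, 1.72 and 1.70 in DMSO replicates 1, 2 and 3. Replicate number 1 was above 3 in both groups and the other 4 arrays were under 2. The difference was −0.10 log2 (SE 0.73, unadjusted p = 0.890, limma). By limma with the replicate block the SE was 0.12 and the unadjusted p 0.426. Probe set 1559477_s_at had 1.75, 1.73 and 1.53 log2 in Vorinostat replicates 1, 2 and 3, and 1.87, 1.66 and 1.74 in DMSO replicates 1, 2 and 3, and it exceeded 3 nowhere.

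PBX3, a partner that binds DNA with HOX and MEIS proteins, had log2 values of 3.74, 1.88 and 2.33 in Vorinostat replicates 1, 2 and 3, and 4.36, 2.49 and 2.14 in DMSO replicates 1, 2 and 3. As in MEIS1 the arrays of number 1 were above 3 and the others were not. The difference was −0.35 log2 (SE 0.77, unadjusted p = 0.668, limma), with −0.62, −0.62 and 0.19 log2 within replicate numbers 1, 2 and 3, so that number 3 went the other way. By limma with the replicate block the SE was 0.21 and the unadjusted p 0.169.

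Vorinostat and DMSO were then compared over the members as a whole. By limma no member passed an adjusted p under 0.05, the lowest adjusted p being 1.0, as no probe set of the array did (0.00% in each direction). None had an unadjusted p under 0.05, against 0.498% of all probe sets higher and 0.500% lower, and none met the study's own rule of a change above 2-fold at an unadjusted p below 0.05 (0.0165% higher and 0.0275% lower). With the replicate block 3 members were higher at an unadjusted p under 0.05 (HOXB3, HOXD1 and HOXD9, as above; 1.59% of all probe sets) and 0 lower (2.09%). The lowest adjusted p of the members with the block was 0.887. By the methods' t-test 2 members, HOXC5 and HOXC10, were higher at an unadjusted p under 0.05 (0.861% of all probe sets) and 0 were lower (1.18%). Of the 47 members, 46 differed by less than 0.5 log2 in size.

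The direction of the members was mixed. With Vorinostat 28 of 47 had a higher mean (46.0% of all probe sets) and 19 a lower mean (54.0%), and the median difference was 0.05 log2 over the members and −0.02 over all probe sets. Within each of the 3 replicate numbers 11 members were higher (12.4% of all probe sets) and 5 were lower (14.7%). Of the 11, 3 lay in HOXB, 5 in HOXC and 3 in HOXD. All 5 lower members were HOXB probe sets, of HOXB1, HOXB5, HOXB6, HOXB8 and HOXB13. The other probe set of each of these genes was mixed over the numbers. In the same order its mean differences were 0.08, −0.004, −0.02, 0.02 and 0.18 log2. The groups did not overlap in 2 higher members (2.39% of all probe sets) and 1 lower member (2.87%). No exact permutation p is given, since with 3 arrays a group its two-sided minimum is 0.1.

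**Figure D3:**
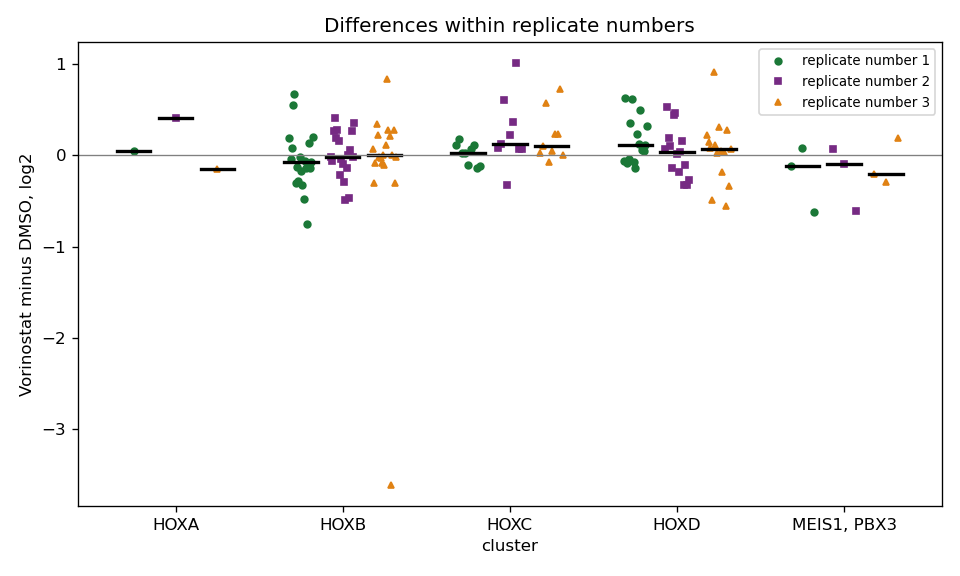
Vorinostat minus DMSO in log2 (vertical axis) for each probe set within replicate numbers 1, 2 and 3 (colours and shapes), by cluster (horizontal axis), with black bars at the medians. Most points lie close to 0, and the lowest, at −3.61, is HOXB8 229667_s_at in replicate number 3.

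The members also differed between the replicate numbers, a pattern noted after the values were seen. Both arrays of number 1 were above the other 4 in 5 members (22.7% of all probe sets), namely HOXB2, HOXB3 228904_at, both MEIS1 probe sets and PBX3. They were below the other 4 in 19 members (24.4% of all probe sets), of which 10 of the 15 HOXD probe sets, 5 HOXB and 4 HOXC. The 10 HOXD probe sets belong to HOXD1, HOXD4, HOXD9, HOXD10, HOXD12 and HOXD13. The number 1 arrays are also those with 8158 and 8645 probe sets above 3, and the part of this in the members' values was not tested.

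Other genes of the HOX pathway were read from lists, each gene by its probe set with the highest mean. Of 6 further TALE cofactors measured, none passed an unadjusted p under 0.05. PBX2, a PBX protein with broad expression, was the only one above 3 throughout, with 5.33, 4.55 and 5.03 log2 in Vorinostat replicates 1, 2 and 3, and 5.20, 5.64 and 5.21 in DMSO replicates 1, 2 and 3 (difference −0.38, SE 0.24). MEIS3, PKNOX1 and PKNOX2 differed by 0.09, 0.13 and 0.15 log2. PBX4, MEIS2, PKNOX1 and PKNOX2 exceeded 3 on no array.

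All 18 regulators of HOX genes were measured, and 6 of them were above 3 on all 3 DMSO arrays (7.75% of all genes). None passed an unadjusted p under 0.05, and within each number 1 was higher (13.0% of all genes) and 3 were lower (13.7%). NPM1, the nucleolar protein mutated in this line, had 10.23, 7.83 and 9.25 log2 in Vorinostat replicates 1, 2 and 3, and 10.90, 9.75 and 9.77 in DMSO replicates 1, 2 and 3. Its values were below DMSO in each number, with a mean difference of −1.04 log2 (SE 0.69, unadjusted p = 0.186, limma; 0.030 with the replicate block). EZH2, which writes the repressive methyl mark over silent HOX clusters, had 3.56, 1.93 and 2.01 log2 in Vorinostat replicates 1, 2 and 3, and 5.58, 2.25 and 2.74 in DMSO replicates 1, 2 and 3 (difference −1.02, SE 1.00, unadjusted p = 0.351; 0.046 with the replicate block). NPM1 and EZH2 were the 2 of the 18 with an unadjusted p under 0.05 under the block, both lower (3.12% of all genes), and 0 were higher (2.25%). The adjusted p of both under the block was 0.887 by limma. RARA, the retinoic acid receptor through which HOX genes are induced, differed by −0.29 log2 (SE 0.20), and DOT1L, the histone methyltransferase needed in leukaemia with KMT2A fusions, by −0.94 log2 (SE 0.74).

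All 14 genes of the list known to be bound by HOXA9 and MEIS1 in mouse leukaemia were measured. Of these, 4 were above 3 on all 3 DMSO arrays (7.75% of all genes) and 5 were above 3 on none of the 6 arrays. None passed an unadjusted p under 0.05, and 2 were higher (13.0% of all genes) and 2 lower (13.7%) within each number. With the replicate block 2 were higher at an unadjusted p under 0.05 (2.25% of all genes) and 0 lower (3.12%), and the adjusted p of both higher genes was 0.887 by limma. They were MEF2C, a transcription factor of myeloid progenitors (1.45 log2, SE 1.76), and SYK, a signalling kinase (0.40 log2, SE 0.81), both chosen after their values were seen. Their unadjusted p from limma was 0.0089 and 0.023 with the block, against 0.443 and 0.639 without it. The 4 with the lowest unadjusted p, ERG, CD34, PIM1 and TRIB2, differed by −0.21, −0.11, −0.18 and 0.26 log2, and of these TRIB2 alone had a value above 3. The measured housekeeping genes, 10 of 12, all had a lower mean with Vorinostat (54.0% of all probe sets), with a median difference of −0.51 log2. Within each number 1 of the 10, HPRT1, was lower (13.7% of all genes) and 0 were higher (13.0%). Their summed log2 values were 84.5, 45.9 and 55.3 in Vorinostat replicates 1, 2 and 3. In DMSO replicates 1, 2 and 3 the sums were 83.8, 62.1 and 57.2, so that number 1 was not lower. The differences of NPM1 and EZH2 stand beside these, and a link was not tested.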

How the data were processed

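RNA of 3 samples with Vorinostat and 3 with DMSO was measured. The authors deposited 1 table of log2 values per probe set and array. They used Partek Genomics Suite to read the array files. MAS5 and RMA appear in the submitters' processing notes, where neither a version nor the step each served is given. The log2 scale was read from the values, and the upper percentiles of the arrays differ. The 54613 probe sets that remained once 62 controls were removed were tested as deposited, unfiltered, with lmFit and eBayes of limma 3.58.1 in R 4.3.3, without a block and with Benjamini-Hochberg adjustment. The fit was tested on simulated data. The threshold of the study was applied to the limma p, and the methods' t-test was an alternative. A gene is represented by its probe set with the highest mean. Probe sets were named from platform annotation, and 11721 are unnamed and 1801 name several genes. Chromosomes and promoters are from RefSeq (GRCh38.p14).

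The members and lists were chosen with earlier results of these data known. The rule for full values took members above 3 in all arrays of a group, members with groups apart and a mean above 3, HOXA9, MEIS1 and PBX3, and up to 4 genes of each list by unadjusted p. It names HOXB8, MEIS1 and PBX3, and the other members shown by array were chosen after their values were seen. The sources do not say whether replicates were separate cultures, and p-values may then cover only technical spread, while the number of arrays limits the precision. Deviations of arrays from their group means correlated at 0.874, 0.599 and 0.672 for same-numbered arrays over probe sets, all above 0.1, so the numbers from the titles were taken to pair the samples. DMSO replicate 3 and Vorinostat replicate 2 correlated at 0.695, and DMSO replicate 2 and Vorinostat replicate 3 at 0.594. Numbers 2 and 3 were thus not told apart, and for them the block and the differences within numbers rest on the titles alone. Alternatives were quantile normalisation, median centring, the block, a filter on the mean, other levels and leaving out arrays.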

Additional observations from a re-analysis of the deposited data

How the results depend on the processing

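No member passed an adjusted p under 0.05 or the threshold of the study under any alternative run. By limma, 0 probe sets of the whole table passed an adjusted p under 0.05 either, while an unadjusted p under 0.05 was reached by 272 higher and 273 lower ones. None of the members was above 3 on all DMSO arrays at the levels of 3 and 4, the 90th percentile, 2 of 3 arrays, quantile normalisation, with several-gene probe sets or in numbers 2 and 3, and 6 were at the level of 2, chosen after seeing the data. Members higher within each number were 11, and 15 to 19 with a number left out (19 without replicate 1), where 23.0% to 25.0% of all probe sets were, against 12.4% with 3 numbers. Members lower were 5, and 9 to 10 with a number left out, where 25.3% to 28.9% of all probe sets were, against 14.7%. Fewer numbers to meet raise both counts. Over all probe sets the counts past the threshold of the study, 9 higher and 15 lower, were 46 and 71 after quantile normalisation, 52 and 175 with the replicate block, 3 and 2 by the methods' t-test, 0 and 1 with the filter on the mean, and 83 and 205 without both number 1 arrays. They were 5 to 99 higher and 0 to 141 lower with 1 array left out. The cause was not tested. Leaving out 1 array moved the difference of HOXB3 228904_at between −0.78 and 1.35 log2 (−0.16 without DMSO replicate 2, −0.11 without DMSO replicate 3, −0.78 without Vorinostat replicate 1). That of MEIS1 204069_at moved between −0.74 and 0.44 (0.44 without DMSO replicate 1, 0.16 without Vorinostat replicate 2, 0.27 without Vorinostat replicate 3), and that of PBX3 between −0.89 and 0.33 (0.33 without DMSO replicate 1, 0.04 without Vorinostat replicate 2). HOXB8 lay between −2.27 and −0.49 and HOXD1 between 0.13 and 0.63 log2. Leaving out 1 array keeps its same-numbered partner in the other group, so these ranges also hold the gap between replicate numbers. Without both number 1 arrays the difference was 0.21 log2 (SE 0.13) in HOXB3 228904_at. With the same arrays left out it was −0.19 log2 (SE 0.14) in MEIS1 204069_at and −0.21 log2 (SE 0.23) in PBX3. Apart from the unadjusted calls given beside HOXB3, HOXD1, HOXD9 and the list genes, the replicate block changed no call of a member.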

Other observations

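The clusters also hold genes for non-coding RNA, and 29 further probe sets named such a gene (25) or several genes (4). Of these, 4 were above 3 on 1 or more arrays, and none on all 3 DMSO arrays. The 25 include PBX3-DT, named for PBX3, which lies outside the clusters on chromosome 9. HOXD3 is named together with HOXD4 by 206601_s_at, 206602_s_at and 217076_s_at, whose values were all under 2. HOTTIP, transcribed from the 5′ end of the HOXA cluster, had in probe set 1564069_at log2 values of 2.72, 6.71 and 5.43 in Vorinostat replicates 1, 2 and 3, and 2.97, 5.90 and 4.51 in DMSO replicates 1, 2 and 3. Here the arrays of replicate number 1 were the lowest of each group, and the groups overlapped. Another HOTTIP probe set, 1564070_s_at, had 2.98, 2.40 and 2.65 log2 in Vorinostat replicates 1, 2 and 3, and 4.66, 2.40 and 3.48 in DMSO replicates 1, 2 and 3, so that number 1 was the highest of each group.

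HOXB-AS3, an antisense gene of the HOXB cluster, had in probe set 236892_s_at log2 values of 6.72, 1.50 and 1.60 in Vorinostat replicates 1, 2 and 3, and 5.10, 1.58 and 1.41 in DMSO replicates 1, 2 and 3. As in HOXB3 228904_at, only the arrays of number 1 were above 3. Its probe set 239791_at had 3.93, 2.21 and 3.31 log2 in Vorinostat replicates 1, 2 and 3, and 1.80, 3.58 and 2.83 in DMSO replicates 1, 2 and 3, with no such split. In HOXA-AS3 the groups did not overlap, with 1.48, 1.42 and 1.40 log2 in Vorinostat replicates 1, 2 and 3, and 1.55, 1.89 and 1.68 in DMSO replicates 1, 2 and 3. The probe set of the microRNA gene MIR10A, between HOXB4 and HOXB5, was between 1.60 and 2.22 on the Vorinostat arrays and between 1.52 and 1.79 on the DMSO arrays. Among the regulators of HOX genes, CDX1 was above 3 on all 6 arrays, with 4.05, 4.66 and 4.37 log2 in Vorinostat replicates 1, 2 and 3, and 4.13, 4.49 and 4.43 in DMSO replicates 1, 2 and 3. These genes were chosen after their values were seen, and none of the differences was taken as a result.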
